A study of Mus musculus with 6 samples.

Results

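Whole testes lacking a working Padi2 gene were compared with wild-type testes by RNA sequencing. The members are the 4 libraries labelled P2KO or WT among the 6 of the series, and every gene with enough counts to be tested was examined, which left 20744 of the 55536 genes listed. The WT mice were FVB/NJ. P2KO mice, inbred on the same background and homozygous, carry a gene trap in which LacZ and neomycin sequences stand in for Padi2 from its start codon into intron 1. The DKO mice, used here only to estimate the spread and for values set alongside, carry the same Padi2 trap plus a CRISPR-made frameshift deletion in exon 1 of Padi4, and descend from 1 founder. All mice were 4-month-old males, each library came from 1 mouse, and each genotype had 2 libraries.

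Peptidylarginine deiminases (PADs) are calcium-dependent enzymes that convert arginine residues of proteins to citrulline, which removes a positive charge. Their substrates include histones, and PAD2 and PAD4, the products of Padi2 and Padi4, have been linked to the regulation of transcription by steroid hormone receptors. The adult testis is made up mostly of germ cells. Spermatogonia divide, spermatocytes pass through meiosis, and spermatids replace their histones with transition proteins and then with protamines, while Sertoli cells nurse the germ cells and Leydig cells make testosterone. In RNA from whole testis, fewer cells of a type and less RNA per cell cannot be told apart.

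Total counts on genes ranged from 21939393 to 27306679 per library, so depth differed little between genotypes. The 2 libraries labelled P2KO did not agree everywhere: Myom3 and E2f2, at 135.8 and 136.2 Mb of chromosome 4, differed at least 2-fold between them, as described with the genes of that region. Markers of Leydig cells, Sertoli cells and every germ cell stage were all tested, while 5 of 6 skeletal muscle markers and 5 of 7 epididymis markers had too few counts.

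Padi2 counts did not check the labels. Padi2 (ENSMUSG00000028927; chromosome 4, plus strand, 140906344 to 140952586 of GRCm38) was weakly transcribed in testis. It had 47 and 64 counts in WT and 100 and 55 in P2KO, so the P2KO libraries were not lower, and the direction of every difference below rests on the labels of the libraries. The log2 fold change (P2KO over WT, where 1 is a 2-fold rise) was 0.40 with a standard error (SE) of 0.239 (edgeR's quasi-likelihood test, adjusted p = 0.686). Its value was between 0.06 and 0.65 when single libraries of these genotypes were left out. The counts are of whole genes, so reads from the exons that the trap leaves in place cannot be separated from the others. Padi2 overlaps Gm13031 on the other strand, and its neighbour Padi1 overlaps Gm13032. Their counts could hold reads of these genes if strand was not used in counting. The 100 bases before the RefSeq start site of Padi2 (chr4:140906260-140906359 of GRCm38.p6, plus strand), at the 5′ end of the trapped gene, hold matches to the GC box (CCGCCC), the CCAAT box (CCAAT) and the core of the cyclic AMP response element (TGACG), searched on both strands and set in capitals.
Padi2: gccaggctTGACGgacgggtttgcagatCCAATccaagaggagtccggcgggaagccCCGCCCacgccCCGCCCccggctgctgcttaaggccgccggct
Windows of this length that hold the GC box make up 24.7% of 32851 RefSeq start sites, against 18.9% for the CCAAT box and 10.5% for the response element core, so none of these matches is rare.

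The other 4 members of the family lie beside Padi2 on the minus strand, and none of the 5 passed the test. Padi4 had 20 and 43 counts in WT and 11 and 10 in P2KO, which do not overlap. Its log2 fold change was -1.63 with an SE of 0.423 (adjusted p = 0.0959), and it was called under 2 of 15 alternatives, which were no filter on low counts and leaving out WT replicate 1. Padi3, which encodes the enzyme of hair follicles and skin, had 185 and 202 counts in WT and 156 and 119 in P2KO, with a log2 fold change of -0.57 with an SE of 0.148 (adjusted p = 0.0959). Padi6, the egg and embryo member, had 235 and 366 counts in WT and 339 and 221 in P2KO, and Padi1 had 26 and 20 against 20 and 23. The libraries of the genotypes overlapped for both of these genes.

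Of the 20744 tested genes 70 passed an adjusted p of 0.05 and are referred to as called, which is 0.337% of them, with 41 higher (0.198%) and 29 lower (0.14%) in P2KO. Before adjustment, p was under 0.05 for 8.57% of all tested genes and 8.27% of those off chromosome 4, and the normalized counts of WT and P2KO did not overlap for 37.5%. Normalized counts, used wherever libraries are compared below, are counts corrected for the size of each library after TMM scaling. Off chromosome 4, 33 of 19517 tested genes were called (0.169%), 19 of them higher (0.0974%) and 14 lower (0.0717%), and 8 changed at least 2-fold (0.041%). On chromosome 4, which carries Padi2, 37 of 1227 were called (3.02%). Without WT replicate 1 the calls rose to 255 off and 56 on chromosome 4, without WT replicate 2 those off chromosome 4 came to 50, and without P2KO replicate 2 to 18. With DESeq2 on all 6 libraries, 12 of the 33 and 29 of the 37 remained called. Genes off chromosome 4 are given first, and those of chromosome 4 follow by position.

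Genes lower in P2KO off chromosome 4 included Nolc1, Txnip and Tnp2. Nolc1 (chromosome 19), which encodes a nucleolar protein that escorts small nucleolar ribonucleoproteins, had 835 and 944 counts in WT and 668 and 592 in P2KO. Normalized counts were 907 ± 47.2 in WT and 611 ± 26.7 in P2KO (SD, n = 2 each), so that both P2KO libraries lay clearly below both WT libraries. The log2 fold change was -0.57 with an SE of 0.0829 (adjusted p = 5.5e-05), and Nolc1 was called under 17 of 17 alternative settings. In DKO, which shares the trap allele, Nolc1 had 1016 and 889 counts, and the log2 fold change against the same WT libraries was 0.08 (adjusted p = 0.738).

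Txnip (chromosome 3) encodes a protein that binds thioredoxin and restrains glucose uptake. It had 1164 and 1689 counts in WT and 1072 and 970 in P2KO. The WT libraries differed from each other, but once scaled both lay above both P2KO libraries, at 1311 and 1564 against 951 and 1033 normalized counts. A log2 fold change of -0.54 resulted, with an SE of 0.083 (adjusted p = 0.000128), and 17 of 17 alternatives called it. Of the 11 tested genes of the thioredoxin system and its arrestin-domain relatives, Txnip was the 1 called, and the median log2 fold change of the list was -0.01. Slc2a8, which encodes a glucose transporter found in sperm, fell by 0.32 on the log2 scale (adjusted p = 0.033), with 1233 and 1416 counts in WT and 1248 and 990 in P2KO, and was called under 7 of 17 alternatives.

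Tnp2 (chromosome 16), which encodes a transition protein that takes the place of histones in condensing spermatids, is among the most abundant transcripts of these libraries. It had 69139 and 89075 counts in WT and 73152 and 62302 in P2KO, or 80172 ± 3230 and 65605 ± 1020 normalized counts (SD, n = 2 each). The scaled libraries of the genotypes stood apart by more than the spread within them. The log2 fold change was -0.29 with an SE of 0.0495 (adjusted p = 0.000762), which is a 1.22-fold fall. Among the 14 tested genes of chromatin compaction in spermatids Tnp2 was the 1 called, and the median log2 fold change was -0.12, against 0.00 over all tested genes. Its partners did not pass the test: Tnp1 had a log2 fold change of -0.22 (adjusted p = 0.164), the protamine genes Prm1 and Prm2 had -0.20 (adjusted p = 0.214) and -0.16 (adjusted p = 0.271), and the spermatid linker histone gene H1fnt had -0.16 (adjusted p = 0.301). All 4 had lower normalized counts in both P2KO libraries than in either WT library, as 37.5% of tested genes do in one direction or the other. Tex37, a testis-expressed gene, fell by 0.26 on the log2 scale (adjusted p = 0.0402), from 3323 and 4329 counts in WT to 3670 and 3016 in P2KO, and was called under 8 of 17 alternatives.

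Emx2 (chromosome 19), a homeobox gene needed for the urogenital tract to form, had 238 and 306 counts in WT and 199 and 167 in P2KO, and its log2 fold change was -0.64 with an SE of 0.138 (adjusted p = 0.0205). On the same chromosome Tlx1os, an antisense gene named for the homeobox gene Tlx1, had 178 and 202 counts against 129 and 110, a log2 fold change of -0.74 (adjusted p = 0.0182). Emx2 was called under 11 and Tlx1os under 13 of 17 alternatives. For both genes the scaled P2KO libraries lay below the scaled WT libraries.

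Several noncoding genes were lower as well. Gm20559 (chromosome 6), with 106 and 116 counts in WT and 43 and 40 in P2KO, had a log2 fold change of -1.49 with an SE of 0.216 (adjusted p = 5.5e-05) and was called under 17 of 17 alternatives. 1700025F24Rik (chromosome 10) fell by 1.01 on the log2 scale, from 133 and 159 counts to 90 and 63. Gm48544 (chromosome 13) and 4930581F22Rik (chromosome 9) fell by 0.59 and 0.48, and the pseudogene Gm9059 on chromosome X by 0.36, the last called under 7 of 17 alternatives. Gm48544 was called under 11 and 1700025F24Rik under 14 of them. Gm20559 overlaps Gm43198 on the other strand, and 4930581F22Rik overlaps Dcps and St3gal4 on the other strand, so that reads of these pairs could be shared if strand was not used in counting. The same limit holds for Txnip, Emx2, Fam208b, S1pr3, Dnah3 and Gm16505, and on chromosome 4 for Ubxn10, Emc1, Casz1 and Ube4bos3, each of which overlaps a gene on the other strand.

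Car3 (chromosome 3) encodes a carbonic anhydrase best known from fat and skeletal muscle. It had 10 and 30 counts in WT, 0 in both P2KO libraries, and 8 and 14 in DKO. P2KO was thus at least 6.11-fold lower than the WT mean, computed against a floor of 3 counts per library (adjusted p = 0.000462, called under 16 of 16 alternatives). The WT libraries stood at 11.3 and 27.8 normalized counts, so this limit depends on WT replicate 2. None of the other 8 tested carbonic anhydrase genes was called. Of 6 tested adipocyte markers 1 was called, which was Car3, and the median log2 fold change of the list was -0.05. Adipoq had 140 and 174 counts in WT and 193 and 164 in P2KO, and Plin1 had 92 and 103 against 85 and 82 (log2 fold change -0.29, adjusted p = 0.723). The markers Fabp4, Cfd, Cidec, Lep and Ucp1 had too few counts for the test. Fabp4 had 6 and 14 counts in WT and 2 and 3 in P2KO, Cfd had 1 and 16 against 1 and 0, and Cidec had 2 and 6 against 1 in each library. Lep had 3 and 4 counts in WT and 6 and 1 in P2KO, and Ucp1 had 1 and 0 against 4 and 2. The summed level of all listed adipocyte markers was 17.2 and 20.3 CPM (counts scaled to a common library total) in WT and 16.7 and 17.4 in P2KO, and the part of residual fat in the Car3 difference was not tested.

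**Figure D1:**
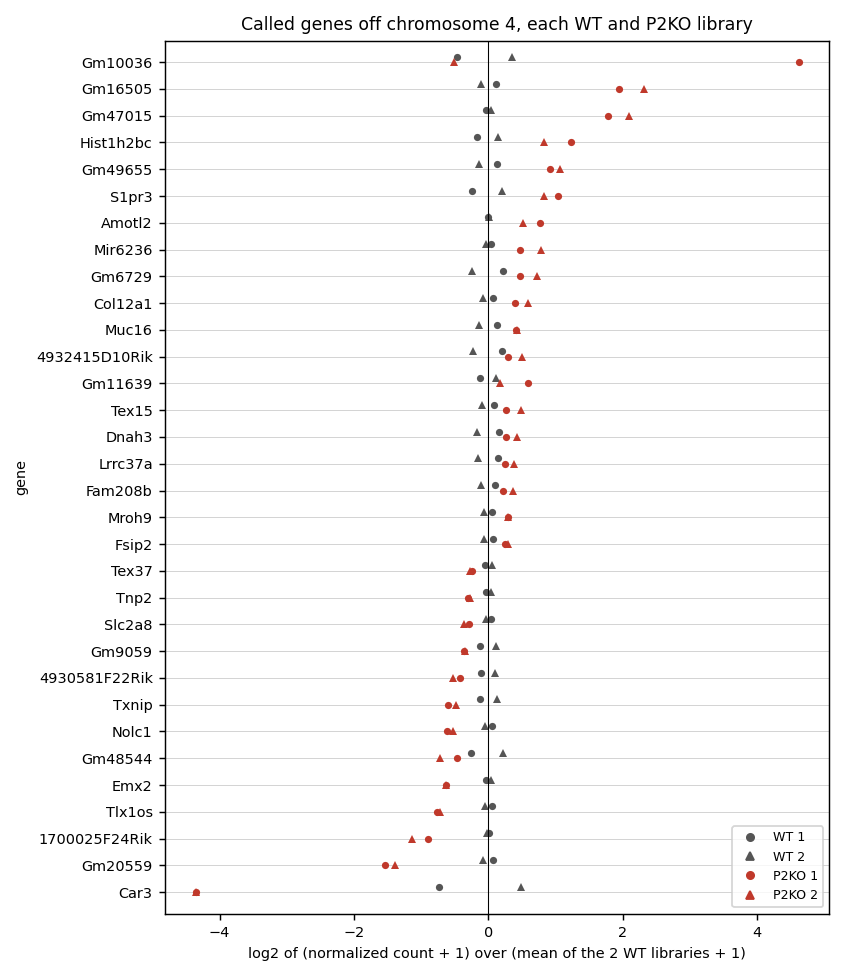
Log2 of the normalized count plus 1 in each WT (grey) and P2KO (red) library over the mean of the WT libraries plus 1, for 32 of the 33 called genes off chromosome 4, with circles for replicate 1 and triangles for replicate 2. The P2KO libraries lie on one side of both WT libraries for every gene shown except Gm10036, in which P2KO replicate 2 sits with WT.

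Genes higher in P2KO off chromosome 4 included Tex15, Fam208b, Fsip2 and Dnah3. Tex15 (chromosome 8) acts in meiosis and in the silencing of transposons through piRNA. It had 2445 and 2636 counts in WT and 3510 and 3420 in P2KO, a log2 fold change of 0.38 with an SE of 0.0708 (adjusted p = 0.00307), and 16 of 17 alternatives called it. Both P2KO libraries were above both WT libraries. Of the 17 tested genes of the piRNA pathway, 1 was called, which was Tex15, and the median log2 fold change was 0.05. The next by p, Tdrd1 and Piwil2, had 0.19 and 0.17 (adjusted p = 0.267 and 0.424).

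Fam208b (chromosome 13), a relative of the gene for the HUSH silencing protein TASOR, had 6230 and 6577 counts in WT and 8615 and 7929 in P2KO, a log2 fold change of 0.30 with an SE of 0.0635 (adjusted p = 0.0191). It was the 1 gene called among 8 tested members and partners of HUSH, whose median was 0.01. Fsip2, which encodes a fibrous sheath protein of the sperm tail, rose by 0.27 on the log2 scale (8750 and 9658 counts against 12629 and 10823), and Dnah3, an axonemal dynein heavy chain gene, by 0.35 (3675 and 3561 against 5024 and 4686). Other rises of this size were those of Mroh9 (0.29), Lrrc37a (0.32), Gm11639 (0.40), 4932415D10Rik (0.40), the mucin gene Muc16 (0.42) and the collagen gene Col12a1 (0.50), with adjusted p between 0.0116 and 0.0402. Of the rises in this paragraph, those of Fsip2, Mroh9, Lrrc37a, Gm11639 and Muc16 were called under 5 to 7 of 17 alternatives, and those of Fam208b, Dnah3, Col12a1 and 4932415D10Rik under 9 to 11. Gm11639 overlaps Efcab3 on the same strand.

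The length of these genes was recorded beside them. The 13 protein-coding genes called higher off chromosome 4 had a median merged exon length of 12454 nucleotides, against 3062 for the 8 called lower and 4197 for all tested protein-coding genes. Across genes off chromosome 4, the median log2 fold change was -0.017 for those up to 1000 nucleotides, -0.032 for those from 1000 to 2000 and 0.063 for those over 8000. The last class, with 2562 of the 19517 tested genes, held 9 of the 19 higher calls and 0 of the 14 lower ones. With an offset per library for gene length, 29 of the 33 genes were still called. The part of RNA integrity or library preparation in the differences of long genes was not tested.

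A few shorter or less abundant genes showed larger rises. Hist1h2bc (chromosome 13), a gene for histone H2B, had 94 and 142 counts in WT and 315 and 198 in P2KO, or 119 ± 18.1 and 245 ± 48.5 normalized counts (SD, n = 2 each). The P2KO libraries differed from each other but both exceeded both WT libraries. The log2 fold change was 1.04 with an SE of 0.156 (adjusted p = 8.09e-05, called under 17 of 17 alternatives). Hist1h2bc was the 1 gene called of 51 tested histone genes, whose median log2 fold change was -0.06. It has 10 near-identical copies on chromosome 13, the nearest 99.5% identical over 381 nucleotides, so its counts are uncertain.

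S1pr3 (chromosome 13), a receptor gene for sphingosine-1-phosphate, had 49 and 82 counts in WT and 152 and 110 in P2KO (log2 fold change 0.93, adjusted p = 0.0144). Amotl2 (chromosome 9), an angiomotin family gene, had 126 and 154 counts against 274 and 191 (log2 fold change 0.65, adjusted p = 0.0228). The noncoding genes Gm49655, with 61 and 62 counts in WT and 135 and 125 in P2KO, and Gm47015, with 11 and 14 against 52 and 54, rose by log2 fold changes of 1.01 and 2.01. Among pseudogenes, Gm6729 rose by 0.60 and Gm16505 by 2.36, the latter from 4 counts in each WT library to 21 and 23 and called under 6 of 16 alternatives. Of 17 alternatives, 10 called Amotl2, 11 called Gm6729, 12 called S1pr3 and 13 called Gm49655. Gm16505 and Gm47015 each have a near-identical copy on another chromosome.

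The microRNA gene Mir6236 (chromosome 9), whose hairpin resembles ribosomal RNA, had 481 and 559 counts in WT and 824 and 855 in P2KO. Both P2KO libraries lay above both WT libraries, and the DKO libraries, with 541 and 522, lay at the level of WT. The log2 fold change was 0.63 with an SE of 0.0959 (adjusted p = 0.000115), and 16 of 17 alternatives called it. Reads of poly(A) libraries come from longer transcripts than mature microRNAs, so the count says nothing of the mature form, whose RefSeq sequence is given with the seed (bases 2 to 8) in capitals to identify the gene (chr9:110281353-110281371 of GRCm38.p6, plus strand).
mmu-miR-6236: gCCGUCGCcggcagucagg
Of the 5 tested genes listed as related to ribosomal RNA, a list that also holds the small nuclear RNA gene Rn7sk, Mir6236 was the 1 called, while 5 of 5 were fitted higher and the median log2 fold change was 0.18. Gm42418, by far the most abundant of them, ranged from 240757 to 359140 counts and had a log2 fold change of 0.18 (adjusted p = 0.523), and its WT and P2KO libraries overlapped. The part of ribosomal RNA carried into the libraries in the rise of Mir6236 was not tested.

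Gm10036, a pseudogene on chromosome 18, was the 1 called gene off chromosome 4 whose libraries overlapped. It had 1 and 3 counts in WT and 81 and 1 in P2KO, so the call (adjusted p = 0.0121, kept under 10 of 16 alternatives) rests on P2KO replicate 1 alone, and without that library the log2 fold change was -0.86. The DKO libraries had 142 and 144 counts. Its sequence is 99.4% identical over 503 nucleotides to Rpl11, a ribosomal protein gene at 136.0 Mb of chromosome 4. Of the 33 called genes off chromosome 4, 6 have a near-identical copy, and Gm10036 is the 1 with a copy on chromosome 4.

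Both mutants carry the Padi2 trap and were compared with the same WT libraries. Log2 fold changes over WT were 0.38 in P2KO and 0.49 in DKO for Tex15, -1.49 and -1.64 for Gm20559, 2.01 and 1.99 for Gm47015, and 0.35 and 0.46 for Dnah3. Other genes were closer to WT in DKO and did not pass there, such as Tnp2 (-0.29 and -0.14), Tlx1os (-0.74 and -0.30) and Gm48544 (-0.59 and -0.27). The called genes off chromosome 4 that passed the test between DKO and P2KO were Nolc1, Car3, Mir6236, Fsip2 and Gm10036. Compared with P2KO, DKO was higher for Nolc1 (log2 fold change 0.65, adjusted p = 2.44e-06) and for Car3 (adjusted p = 0.00744), which was at 0 in P2KO. It was lower for Mir6236 (log2 fold change -0.61, adjusted p = 0.000105). Fsip2 differed in the other sense, being higher still in DKO than in P2KO (log2 fold change 0.35, adjusted p = 0.00087), as was Gm10036 (log2 fold change 1.89, adjusted p = 0.00392). This comparison uses the same P2KO libraries that gave the calls against WT, so it is not independent of them.

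In marker lists for 9 cell types or stages of the testis, Tnp2 was the 1 gene called. The median log2 fold change was 0.07 over 11 Leydig cell markers, 0.11 over 13 Sertoli cell markers, 0.08 over 10 of spermatogonia, 0.01 over 12 of spermatocytes, 0.08 over 10 of round spermatids and -0.08 over 10 of elongating spermatids, against 0.00 over all tested genes. Fitted values were higher in P2KO for 12 of the 13 Sertoli cell markers and 1 of the 10 of elongating spermatids, against 10572 of all 20744 tested genes. In Leydig cells the steroid-making enzyme gene Cyp11a1 had the smallest p, with 2276 and 2856 counts in WT, 3586 and 2994 in P2KO and a log2 fold change of 0.29 (adjusted p = 0.103, called under 6 of 17 alternatives), and Star had 0.24 (adjusted p = 0.352, called under 2). The paralogs Hsd3b1 and Hsd3b6 had -0.23 and -0.22. No steroid hormone receptor gene was called among 4 tested.

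No marker of macrophages, red blood cells, peritubular myoid cells or endothelium was called. Macrophage markers had a median of -0.24 over 9 genes, 1 of them fitted higher, and the lysozyme gene Lyz2 had 332 and 489 counts in WT against 346 and 294 in P2KO (log2 fold change -0.42, adjusted p = 0.109). Of the 9, 6 lie off chromosome 4, and the genes of complement C1q lie at 136.9 Mb of it. Summed, the 9 macrophage markers stood at 83.8 and 100 CPM in WT and 78.9 and 86.7 in P2KO. Of red blood cell markers, Hbb-bs had 146 and 295 counts in WT and 67 and 166 in P2KO, and Hba-a1 had 168 and 358 against 82 and 258. The P2KO libraries differed from each other by more than 2-fold in both globin genes and overlapped with WT. Peritubular myoid and endothelial markers had medians of -0.15 and 0.09 over 6 genes each.

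**Figure D2:**
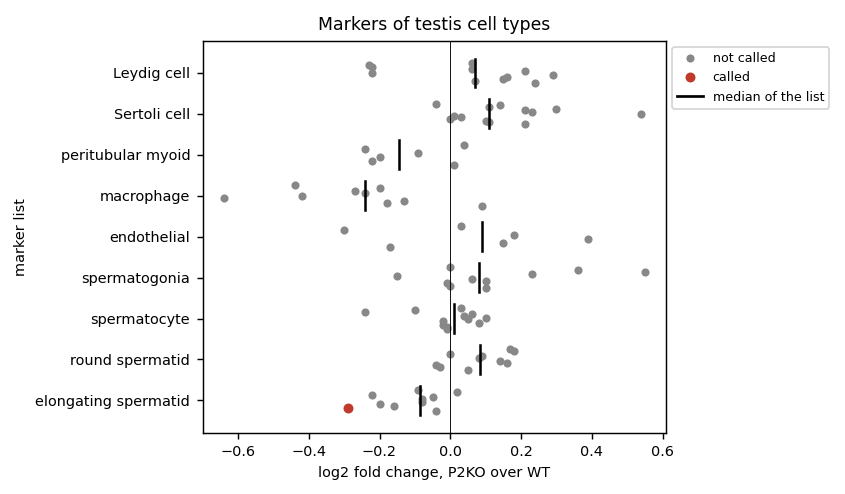
Log2 fold change of P2KO over WT (horizontal axis) for each tested marker of 9 testis cell types or stages (rows), with called genes in red, other genes in grey and the median of each list as a black bar. Medians lie between -0.24 (macrophage) and 0.11 (Sertoli cell), and Tnp2 is the 1 called marker.

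On chromosome 4 the called genes were higher in 22 cases (1.79% of tested genes there) and lower in 15 (1.22%), and 20 changed at least 2-fold (1.63%). They were not spread along the chromosome. Before E2f2 at 136.2 Mb, 929 genes were tested and 1 was called (0.108%). From E2f2 to Ube4bos2 at 149.3 Mb, 36 of 180 were called (20%). After Ube4bos2, 0 of 118 were called. Within the dense stretch, the genes from 140.7 to 145.3 Mb, which hold all 5 Padi genes, gave 0 calls among 51 tested. The ends of these segments are themselves called genes, so the shares are a description. P2KO and WT are separate lines, and the trap allele and any other difference in the chromosome around it cannot be told apart.

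**Figure D3:**
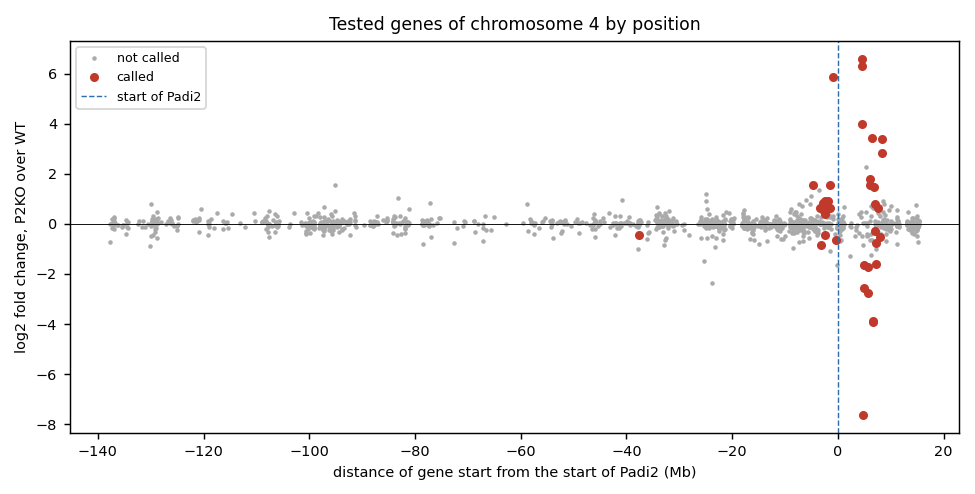
Log2 fold change of P2KO over WT for the 1227 tested genes of chromosome 4, by distance of the gene start from the start of Padi2 in Mb, with called genes in red and the start of Padi2 as a dashed line. Of the 37 called genes, 36 lie in the stretch around Padi2 that begins at E2f2 and ends at Ube4bos2.

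The gene farthest from the others was 4921539E11Rik at 103.2 Mb, with 3837 and 4651 counts in WT and 3574 and 2899 in P2KO. Its normalized counts were 4314 ± 12.0 and 3128 ± 59.3 (SD, n = 2 each), and the log2 fold change was -0.46 with an SE of 0.0593 (adjusted p = 4.57e-06, called under 16 of 16 alternatives). In DKO it stood at the WT level, with 4866 and 4425 counts.

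At some genes from 135.8 to 137.2 Mb the P2KO libraries differed from each other, while at others, such as Eloa (1395 and 1455 normalized counts) and Luzp1 (10230 and 10516), they were close. E2f2, a cell cycle transcription factor gene, had 38 and 59 counts in WT, 257 and 47 in P2KO, and 318 and 373 in DKO. P2KO replicate 1 was thus near DKO and P2KO replicate 2 near WT, and the call (log2 fold change 1.54, adjusted p = 0.0236, kept under 7 of 16 alternatives) rests on replicate 1: without it the log2 fold change was 0.03. Myom3, a muscle gene at 135.8 Mb, had 22 and 29 counts in WT, 94 and 23 in P2KO, and 130 and 103 in DKO, the same order. The noncoding gene Gm13003 at 137.2 Mb had 408 and 539 counts in WT and 334 and 433 in P2KO, or 460 and 499 against 296 and 461 normalized counts, while DKO had 68 and 71. At Runx3, at 135.1 Mb, both P2KO libraries (418 and 319 counts) lay near WT (356 and 386) and far from DKO (67 and 75). At Hspg2 (137.5 Mb) and every called gene after it, both P2KO libraries lay on one side of both WT libraries. These limits were chosen after the values were seen. At Hspg2 both P2KO libraries (653 and 617 normalized counts) still lay between WT (444 and 387) and DKO (828 and 882). Hspg2 also passed the test between DKO and P2KO (log2 fold change 0.43, adjusted p = 0.00496). Among genes with at least 50 normalized counts in a library of the pair, a 2-fold difference between the libraries of 1 genotype was found for 21 genes in WT, 19 in P2KO and 21 in DKO, and the numbers on chromosome 4 were 0, 3 and 1. The 3 in P2KO were Myom3, E2f2 and Tmem88b, which lies apart from them at 155.8 Mb. Between DKO and WT, 3.22% of all tested genes were called and 2.74% of those off chromosome 4.

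**Figure D4:**
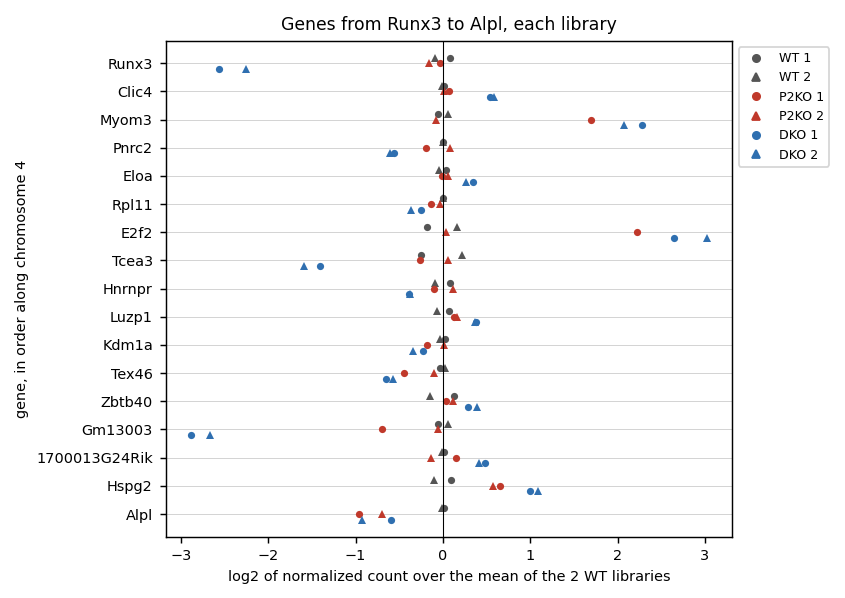
Log2 of the normalized count over the mean of the WT libraries in each of the 6 libraries, for 15 genes from Runx3 up to Hspg2 called between DKO and WT and for Hspg2 and Alpl. At Myom3, E2f2, Tex46 and Gm13003 P2KO replicate 1 (red circle) lies toward DKO (blue) and P2KO replicate 2 (red triangle) nearer WT (grey), whereas at Hspg2 and Alpl both P2KO libraries lie away from WT.

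From Hspg2 to 4933427I22Rik (137.5 to 139.9 Mb) most called genes were higher in P2KO. The window from 135 to 140 Mb held 13 calls among 80 tested genes (16.2%), 11 higher and 2 lower. Mrto4 at 139.3 Mb, which encodes a factor for assembly of the large ribosomal subunit, had 618 and 690 counts in WT and 2286 and 1770 in P2KO. Normalized counts were 667 ± 40.6 and 1956 ± 101 (SD, n = 2 each), far beyond the spread within genotypes. This was a log2 fold change of 1.55 with an SE of 0.0748 (adjusted p = 3.96e-17), and DKO, with 2040 and 1817 counts, gave 1.54 against the same WT libraries. Mrto4 has a processed copy, Mrto4-ps1, 98.3% identical over 721 nucleotides on chromosome 12. Among 13 tested nucleolar and ribosome assembly genes, Mrto4 was called higher and Nolc1 lower, and the median log2 fold change was 0.00.

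In the same window, Ubxn10 at 138.7 Mb had 4640 and 5326 counts in WT and 10028 and 8441 in P2KO (log2 fold change 0.82, SE 0.0569, adjusted p = 1.18e-12). Camk2n1 at 138.5 Mb, which encodes an inhibitor of the calcium/calmodulin-dependent kinase CaMKII, had 991 and 1020 counts against 2065 and 1884 (log2 fold change 0.90, adjusted p = 2.49e-10). None of the other 4 tested genes for CaMKII and its inhibitors was called. The noncoding gene 4933427I22Rik at 139.9 Mb had 0 and 3 counts in WT and 107 and 89 in P2KO, at least 28.1-fold higher (adjusted p = 1.14e-11). Hp1bp3, which encodes a heterochromatin protein 1 partner, rose by 0.53 on the log2 scale.

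Further genes of this window were Hspg2, which encodes the basement membrane proteoglycan perlecan (394 and 418 counts in WT, 736 and 580 in P2KO, log2 fold change 0.62), the mitochondrial ubiquitin ligase gene Mul1 (0.39), Emc1 of the membrane protein insertion complex of the endoplasmic reticulum (0.62), Nbl1, an antagonist of bone morphogenetic proteins (0.91, called under 7 of 16 alternatives), and 1700095J12Rik (0.84). Each was the 1 member called higher in its list where it had one: Hspg2 of 14 tested basement membrane genes with a median of 0.02, and Emc1 of 11 with a median of -0.02. Alpl, the alkaline phosphatase gene of bone and liver, fell by 0.83 on the log2 scale, from 258 and 311 counts to 168 and 167, and Vwa5b1 fell by 0.46. Emc1 overlaps Ubr4 on the same strand. In the window from 140 to 145 Mb the 1 called gene of 52 (1.92%) was Arhgef10l, a guanine nucleotide exchange factor gene, which fell by 0.65 on the log2 scale (494 and 620 counts against 425 and 321).

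The window from 145 to 150 Mb held the largest differences. Of its 83 tested genes 22 were called (26.5%), 11 in each direction, and the median absolute log2 fold change was 0.43, against 0.11 off chromosome 4. Here lies a cluster of KRAB-type zinc-finger genes, a family of repressors many of which bind transposons, that arose by repeated duplication. Of 19 zinc-finger genes listed from this stretch, 13 were tested, 3 were called higher and 4 lower, and the median log2 fold change was -0.26.

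Zfp990 at 145.5 Mb went from 19 and 14 counts in WT to 1895 and 1500 in P2KO, with 1814 and 1880 in DKO. The gene was thus close to silent in WT and well expressed in both mutants (log2 fold change 6.60, SE 0.148). Zfp984 had 50 and 79 counts in WT and 208 and 167 in P2KO (log2 fold change 1.47, adjusted p = 4.54e-07), and Zfp978 had 2 in each WT library and 27 and 21 in P2KO, at least 6.85-fold higher. Zfp984 overlaps Gm20707 on the same strand and is 97.7% identical to Gm13212 over 1222 nucleotides, so its counts are uncertain.

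In the opposite direction, Zfp979 at 147.6 Mb had 270 and 322 counts in WT and 21 and 20 in P2KO (log2 fold change -3.91, SE 0.204, adjusted p = 3.08e-16). Zfp982 at 147.5 Mb had 205 and 248 against 21 and 11 (log2 fold change -3.89, adjusted p = 2.65e-14), and Zfp993 at 146.6 Mb had 129 and 121 against 17 and 22 (log2 fold change -2.75). The pseudogene Znf41-ps fell by 1.63 on the log2 scale, from 576 and 611 counts to 215 and 188. Their neighbours Zfp981, Zfp991 and Zfp992 kept between 203 and 639 counts in every WT and P2KO library and were not called, with log2 fold changes of -0.49, -0.39 and 0.05. Neighbouring members of the cluster thus differed in opposite directions or did not pass the test.

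**Figure D5:**
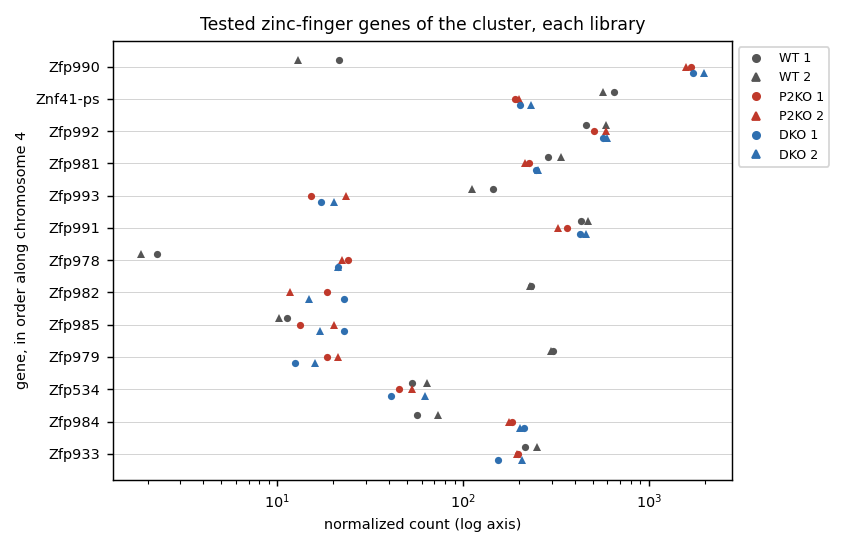
Normalized counts on a log axis in each WT (grey), P2KO (red) and DKO (blue) library for the 13 tested zinc-finger genes of the cluster, in order along chromosome 4. Zfp990, Zfp978 and Zfp984 lie far to the right of WT in P2KO, and Znf41-ps, Zfp993, Zfp982 and Zfp979 far to the left.

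Members of the cluster resemble each other, so reads could move between them. Znf41-ps, which fell, is 99.5% identical to Zfp991 over 2410 nucleotides and 99.3% identical to Zfp992 over 2413, neither of which was called, and its counts and theirs are uncertain. Zfp978, which rose, and Zfp979, which fell, match over 1010 aligned coding nucleotides at 92.7% identity, and their transcripts hold a stretch of 572 nucleotides that is 99.5% identical. The coding stretch where they differ most is shown (positions 702 to 821 of each annotated coding sequence, GENCODE M21, 5′ to 3′), with the 27 of 120 bases that differ in capitals. Within this stretch, only reads over such bases tell the genes apart.
Zfp978: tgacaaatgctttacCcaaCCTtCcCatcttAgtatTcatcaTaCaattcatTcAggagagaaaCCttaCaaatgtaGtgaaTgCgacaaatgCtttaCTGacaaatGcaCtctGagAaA
Zfp979: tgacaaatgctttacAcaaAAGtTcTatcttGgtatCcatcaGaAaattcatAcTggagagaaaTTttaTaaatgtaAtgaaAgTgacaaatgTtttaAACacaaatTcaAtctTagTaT
Across all called genes on chromosome 4, 11 of 37 have a near-identical copy, 10 of them with one on the same chromosome.

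The upstream sequences of 3 called members of the cluster are related too. The 100 bases before the RefSeq start site are shown for the called members with an entry close to the annotated start, which are Zfp979 (chr4:147642509-147642608, minus strand), Zfp982 (chr4:147492317-147492416, plus strand) and Zfp984 (chr4:147809789-147809888, minus strand), all of GRCm38.p6. Capitals mark the CCAAT box and the overlapping GC box, both read on the opposite strand.
Zfp979: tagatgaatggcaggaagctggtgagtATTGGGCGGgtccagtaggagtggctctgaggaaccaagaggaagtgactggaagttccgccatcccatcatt
Zfp982: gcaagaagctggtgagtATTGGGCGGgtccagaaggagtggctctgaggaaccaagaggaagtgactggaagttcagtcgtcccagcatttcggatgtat
Zfp984: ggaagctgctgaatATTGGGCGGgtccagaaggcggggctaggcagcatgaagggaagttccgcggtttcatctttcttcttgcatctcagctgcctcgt
The windows of Zfp979 and Zfp982, which both fell, share 84 of 90 aligned bases (93.3%). Zfp984, which rose, shares 62 of 76 aligned bases (81.6%) with Zfp979 and holds the same joined pair of boxes. The RefSeq start site of Zfp993, which also fell, lies 98112 bases from the annotated start, so its window is not shown to adjoin the counted gene. That window aligned over 25 bases with Zfp979 and Zfp982 and over 12 with Zfp984. A match in letters does not show that a factor binds there.

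Noncoding genes and pseudogenes of the same window were called as well. Gm26763 at 145.6 Mb had 305 and 300 counts in WT and 2 and 1 in P2KO, at least 97.3-fold lower. Platr16 had 0 counts in both WT libraries and 12 and 8 in P2KO, at least 2.83-fold higher, and was called under 5 of 13 alternatives. Gm13230, which overlaps it on the same strand, had 2 in each WT library and 36 and 34 in P2KO, at least 10.1-fold higher. The antisense genes Ube4bos3, which overlaps Ube4b on the other strand, and Ube4bos2, both at 149.3 Mb, rose by log2 fold changes of 2.84 and 3.39, the former from 51 and 64 counts to 472 and 395. Likewise 4933438K21Rik rose by 1.56, from 312 and 357 counts to 1260 and 833. The log2 fold change of Ube4bos2, which had 11 and 6 counts in WT, ran from 2.88 to 4.02 with single WT or P2KO libraries left out. The antisense gene 1700095A21Rik fell by 1.72 on the log2 scale, Gm13201 by 1.59 and the pseudogene Gm13238 by 2.56, the last called under 11 of 15 alternatives.

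Of protein-coding genes not named as zinc-finger genes, Gm21411 rose by 1.80 on the log2 scale in this window and was called under 12 of 15 alternatives, and the other called ones had log2 fold changes between -0.78 and 0.79. Gm21411 resembles members of the zinc-finger cluster, so its counts are uncertain. It is 97.8% identical to Zfp989 over 720 nucleotides and 97.3% identical to Zfp990, which rose, over 489. Mtor, the kinase gene at the heart of both mTOR complexes, had 6139 and 5988 counts in WT and 10357 and 9788 in P2KO, or 6229 ± 971 and 9803 ± 872 normalized counts (SD, n = 2 each). The genotypes did not overlap, and the log2 fold change was 0.65 with an SE of 0.0711 (adjusted p = 1.06e-07). Mtor was the 1 gene called of 12 tested members of its complexes, whose median log2 fold change was 0.05. Plod1, a lysyl hydroxylase gene for collagen, rose by 0.79 (195 and 217 counts against 402 and 345), and neither Plod2 nor Plod3 was called. Fbxo44, an F-box gene, fell by 0.78 on the log2 scale (2266 and 2763 against 1698 and 1382, adjusted p = 2e-10). The mitofusin gene Mfn2 and the transcription factor gene Casz1 fell by 0.27 and 0.53, with adjusted p of 0.0328 and 0.0435, and were called under 7 and 6 of 16 alternatives.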

How the data were processed

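RNA from whole testis was sequenced by the authors in pairs of reads from strand-specific poly(A) libraries. Reads were trimmed with Trim Galore and cutadapt and aligned with STAR to GRCm38, and the authors deposited 1 table of raw counts per gene, with no normalization. Tool versions and the strand setting of the counts are not given in the sources used here. Positions and overlaps came from GENCODE M21. The analysis used edgeR 4.0.16 under R 4.3.3, with filterByExpr (minimum count 10), TMM scaling, and glmQLFit and glmQLFTest on all 6 libraries with a genotype term (3 residual degrees of freedom, common biological coefficient of variation 0.0508). Benjamini-Hochberg adjustment ran over all 20744 tested genes, and an adjusted p under 0.05 was a call. With 2 libraries per genotype, an exact permutation test of 1 gene cannot pass 0.05. The replicates are separate mice, and their numbers did not pair them.

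In data simulated for P2KO against WT (20413 genes), 85.2% of changes of 1 and 94.4% of changes of 2 on the log2 scale were called, as were 7 unchanged genes. The simulation gave all genes the same biological coefficient of variation and held no smaller changes. Most genes called off chromosome 4 changed less than 2-fold, and how often such changes are called was not tested. The alternatives were RLE or upper-quartile scaling, other filters on low counts, DESeq2 1.42.0, the genotypes compared alone, genes off chromosome 4 alone, a length offset (lowess span 0.3), a replicate block, and each library left out. Leaving out a DKO library was added after the data were seen. Near-identical copies were found with BLAST 2.17.0 (at least 95% identity over 150 nucleotides and 50% of the shorter transcript). RefSeq promoter entries matched 44 of the 70 called genes. Named genes are the Padi family, all genes called off chromosome 4 except 1 that is not reported here, those changed at least 2-fold on chromosome 4 with up to 5 others per window, and listed genes with the smallest p. Genes of the stretch from 135.1 to 137.2 Mb, Tmem88b, Malat1, C3 and other called genes of chromosome 4 were named in addition after their values were seen. Members and lists were chosen with earlier results of these data known. The floor for a gene at or near 0 was 3 counts per library, which covers counting error only.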

Additional observations from a re-analysis of the deposited data

How the results depend on the processing

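The 41 higher and 29 lower calls, 33 off and 37 on chromosome 4, depended on the settings. Without a filter on low counts there were 80 higher, 60 lower and 91 off chromosome 4. DESeq2 gave 22 higher, 19 lower and 12 off chromosome 4 on all 6 libraries, and 22, 18 and 12 on the genotypes compared. In edgeR on the genotypes compared there were 26 higher and 16 off chromosome 4. Genes off chromosome 4 analysed alone gave 13 higher and 11 lower, against 19 and 14 for the same chromosomes in the main fit. All 24 were among the 33 called there, and the other 9 were no longer called without the chromosome 4 genes. With single libraries left out, the range was 28 to 221 higher, 25 to 90 lower, 18 to 255 off and 29 to 56 on chromosome 4, the highest without WT replicate 1. Counts under the other scalings, the stricter filter and the length offset stayed within 1.5 times. The cause of the other shifts was not tested.

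The replicate number did not pair the libraries: same-numbered libraries deviated together with correlations of -0.0572, 0.0574 and -0.0502. With the number as a replicate block there were 24 higher calls and 13 off chromosome 4.

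Of single genes, the log2 fold change of Gm10036 ran from -0.86 (without P2KO replicate 1) to 5.06 with libraries left out, that of Padi1 from -0.49 to 0.17 (without WT replicate 1, and 0.06 without P2KO replicate 1), and that of Padi6 from -0.37 to 0.02 (without WT replicate 2). Of named genes that were not called, Gm42418, Tnp1, Prm1, Hba-a1 and Hbb-bs passed the test under 3 or 4 of 17 alternatives. No other called gene or Padi gene turned sign under the alternatives run. Of named genes that were not called, Star, Gm42418, Hba-a1, Zfp992, Plod2, Plod3, Myom3, Tmem88b, Eloa, Rn7sk, C3 and Malat1 turned sign with 1 library left out. Depth and 2 mice per genotype limit what could be called for genes of few counts.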

Other observations

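Genes that were not called between P2KO and WT also differed between the libraries labelled P2KO. Malat1, an abundant nuclear noncoding RNA, had 7025 and 3174 normalized counts in P2KO and 2873 and 5823 in WT. C3, the gene of complement component 3, had 62.1 and 154 in P2KO, 71.0 and 72.2 in WT, and 204 and 218 in DKO.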
